A study of Saccharomyces cerevisiae with 12 samples.

Results

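The genes of sulfate uptake and methionine synthesis were followed in a count table of ribosome footprints, the short RNA fragments that a translating ribosome shields from nuclease. The set had 10 genes, taken by their systematic names from the 6697 rows of the table: SUL1, SUL2, MET3, MET14, MET16, MET5, MET10, MET17, MET2 and MET6. All 10 passed the filter on low counts, as did 5719 of the 6697 rows. The cells were budding yeast of the W303 Ade+ background, a laboratory strain, and every library came from cells in which Ded1, a helicase that acts at the start of translation, was fused to the red fluorescent protein mCherry.

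IDRm cells had the genotype Ded1_IDRm-mCherry and WT cells had Ded1-mCherry. The labels also write IDRm as IDR-mut, and do not spell out the letters IDR. Cultures of each strain, started from duplicate pre-cultures, reached an OD600 of 0.5 at 30 °C and were split. The parts were then kept for 10 min at 30, 40 or 42 °C, making 6 groups with 2 libraries each. The sources used here name neither the growth medium nor the supply of methionine and sulfate. They record no spike-in, so each level is a share of its library. A change in footprints can come from more or less mRNA or from more or less ribosomes on each mRNA, and these cannot be told apart here.

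Yeast makes methionine and cysteine from sulfate. Permeases bring sulfate in, a chain of enzymes activates it with ATP and reduces it to sulfide, and sulfide is then joined to a carbon chain made from homoserine to give homocysteine, which is methylated to methionine. The pathway is costly in ATP and NADPH, and its genes are known to be switched on together by the activator Met4, which is brought to DNA by Cbf1 and by Met31 or Met32 and is held in check by the ubiquitin ligase subunit Met30 when methionine is plentiful.

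The sequence upstream of each gene was read from the R64 genome, that of strain S288C, to see which of the sites known for these DNA-binding proteins the 10 genes share. The search covered the 500 bases before each start codon on both strands, for CACGTG, the site of Cbf1, and for AACTGTGG, the core of the site of Met31 and Met32. CACGTG was present before 9 of the 10 genes, all except SUL1, and before 373 of 5993 genes of the table, or 6.22%. AACTGTGG was present before 4 of the 10, SUL2, MET3, MET17 and MET6, and before 1.67% of all genes. The stretches below are shown because they hold every match found. Each is given 5′ to 3′ on the strand of its gene, and capitals mark the matches, which as written may be on the other strand (CCACAGTT).
SUL2, chrXII:323198-323276: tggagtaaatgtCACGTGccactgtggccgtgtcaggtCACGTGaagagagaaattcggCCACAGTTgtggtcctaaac
MET3, chrX:455850-455896: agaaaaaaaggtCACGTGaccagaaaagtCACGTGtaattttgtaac
MET3, chrX:455974-456005: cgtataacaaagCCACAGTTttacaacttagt
MET14, chrXI:439596-439625: tgccactaatttCACGTGatcaatatattt
MET16, chrXVI:877793-877822: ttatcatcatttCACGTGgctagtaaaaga
MET5, chrX:683572-683630: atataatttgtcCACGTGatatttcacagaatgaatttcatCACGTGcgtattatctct
MET10, chrVI:213051-213098: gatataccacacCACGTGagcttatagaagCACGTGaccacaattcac
MET17, chrXII:732230-732285: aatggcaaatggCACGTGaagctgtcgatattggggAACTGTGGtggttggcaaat
MET2, chrXIV:116984-117013: ttgacgtattttCACGTGatgcgcctcact
MET6, chrV:342645-342667: tatttCACGTGacttacaaacag
MET6, chrV:342454-342485: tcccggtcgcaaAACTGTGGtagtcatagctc

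SUL2, MET3, MET5 and MET10 held 2 copies of CACGTG, and MET14 and MET16 held 1 copy and no AACTGTGG. Among 31 other genes of sulfur metabolism and its regulation, CACGTG was present before 16, or 51.6%, beside 90% of the 10 genes. AACTGTGG was present before 12 of the 31, or 38.7%, beside 40% of the 10 genes. A match is a run of letters in the reference and no binding was measured.

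**Figure D1:**
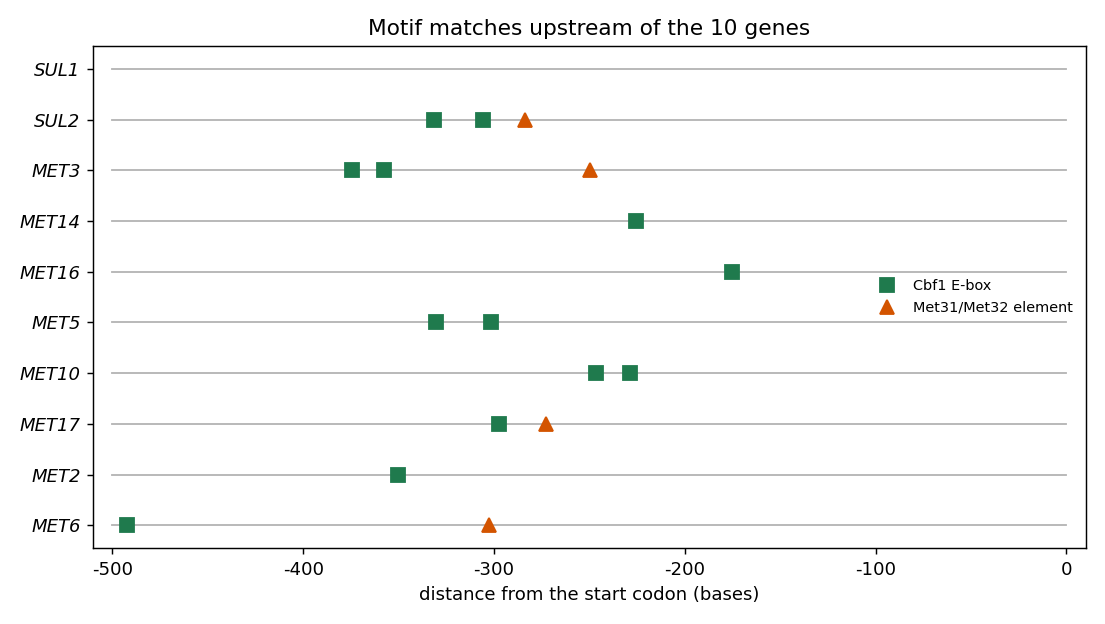
Matches of the Cbf1 site (squares) and of the Met31 and Met32 core (triangles) in the 500 bases upstream of each start codon, with distance in bases on the horizontal axis and 1 row per gene. In 9 of 10 rows there is at least 1 square, and in the row of SUL1 there is neither mark.

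The 12 libraries held between 3429950 and 7851819 counts, and the Pearson correlation between replicates was 0.9894 to 0.9942 on log2 CPM, the counts scaled to a common library total. HSP26, a small heat shock protein, had 55.0 and 79.2 CPM in IDRm at 30 °C, against 27.7 CPM in WT replicate 1 and 115 CPM in WT replicate 2, so the WT libraries stood apart from each other.

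The 10 genes together took 0.418% and 0.459% of all counts in IDRm at 30 °C, 0.0854% and 0.0859% of them at 40 °C, and 0.139% in each library at 42 °C. In WT the shares were 0.682% and 0.658% at 30 °C, 0.113% and 0.126% of them at 40 °C, and 0.17% and 0.184% at 42 °C. Both strains thus had the highest share at 30 °C and the lowest at 40 °C, and at each temperature both IDRm libraries were below both WT libraries. MET6 alone gave 74.0% and 73.8% of the counts of the set in IDRm at 30 °C and 26.3% and 25.9% at 40 °C.

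Per kilobase of coding sequence, which allows genes to be set beside each other, levels spanned more than 2 orders of magnitude. At 30 °C in IDRm MET6 stood highest with 1354 ± 80.7 CPM per kb, then MET17 with 535 ± 37.4 and MET14 with 127 ± 2.44 (SD, n = 2 each), and SUL1 and SUL2 were lowest with 1.06 ± 0.348 and 1.05 ± 0.379. At 30 °C in WT the same 3 genes led, with 1898 ± 58.3, 850 ± 70.9 and 187 ± 6.47 CPM per kb, and SUL2 and SUL1 were lowest with 4.89 ± 0.646 and 2.65 ± 0.409. Neighbours whose replicates overlapped were SUL1 and SUL2 in IDRm at each temperature, MET5, MET3 and MET10 in WT at 30 °C, MET10 and MET2 in IDRm at 40 °C, and MET17 and MET6 in WT at 42 °C. MET6 lost the first place to MET17 at 40 °C in both strains, and in IDRm at 40 °C it also stood below MET14.

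**Figure D2:**
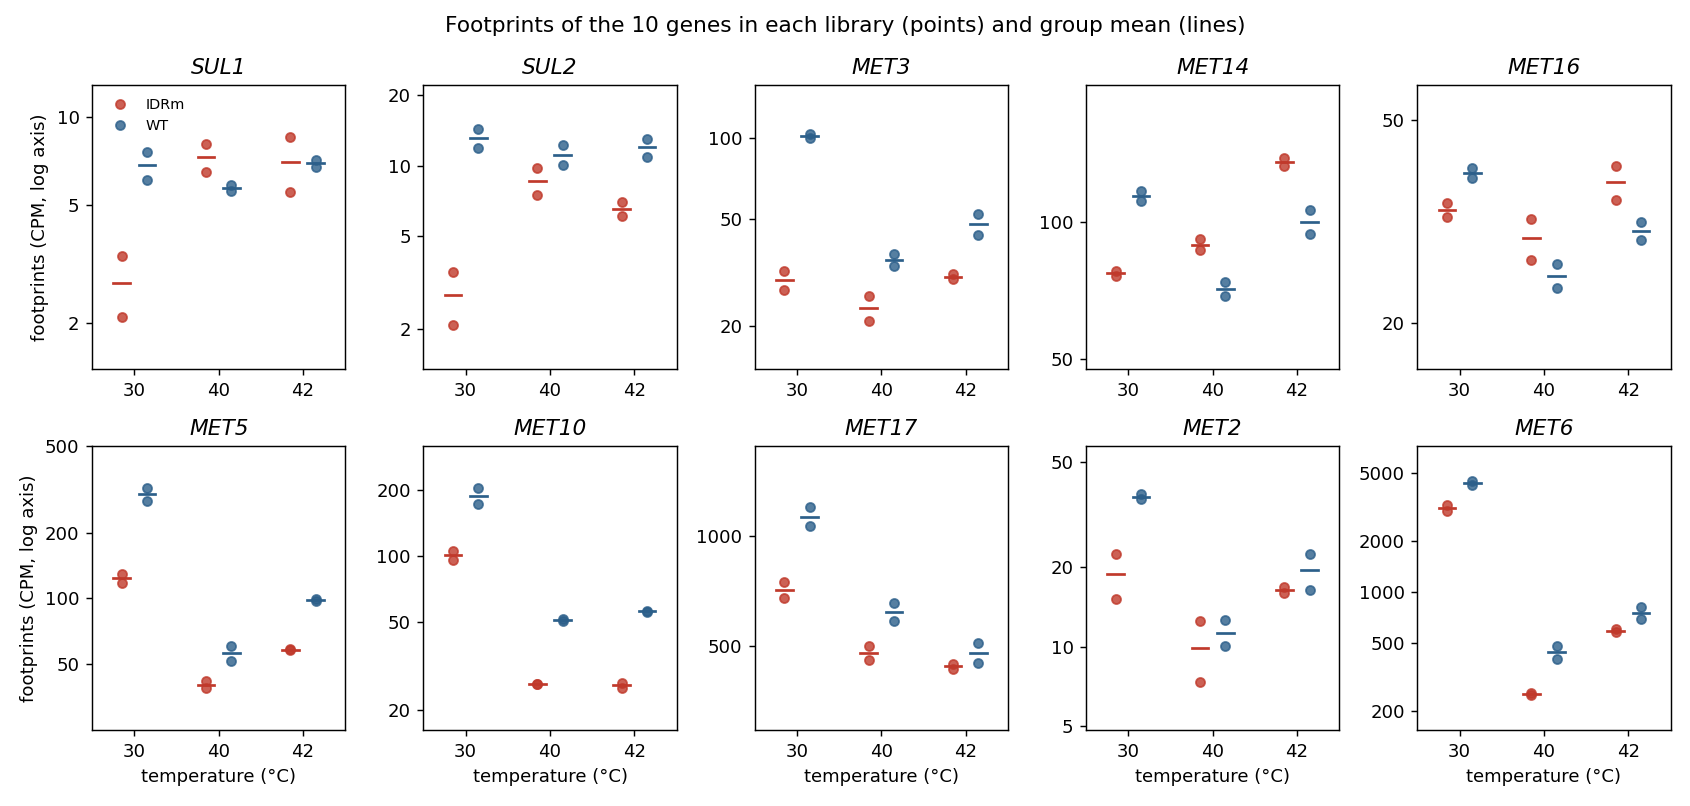
Footprints of each gene in CPM on a log axis against temperature in °C; points are libraries and lines are means of 2, with IDRm left of WT. At 30 °C both IDRm points lie below both WT points in all 10 panels, an order whose share among all genes was not counted. Both IDRm points lie above both WT points for SUL1, MET14 and MET16 at 40 °C, and for MET14 and MET16 at 42 °C.

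The first question was whether the strains differed before heat. At 30 °C, 9 of the 10 genes were lower in IDRm than in WT and none was higher (edgeR quasi-likelihood test across all genes, Benjamini-Hochberg adjusted p at most 0.05). Of all 5719 genes tested, 6.75% were called lower and 9.58% higher. Changes are given as log2 fold changes with an approximate standard error after the ± sign. The median change of the 10 genes was −0.94, beside 0.00 over all genes. Both IDRm libraries were below both WT libraries for all 10 genes, MET16 included, although MET16 was not called (edgeR, adjusted p = 0.167). How often all genes show such an order was not counted, and with 2 libraries per group it can arise without a difference. The change ranked 15 from the lowest of 5719 for SUL2, 33 for MET3, 71 for MET5 and 80 for SUL1.

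SUL1 and SUL2 (YBR294W and YLR092W, chromosome II, 789235 to 791814, and chromosome XII, 323544 to 326225) encode the high-affinity sulfate permeases of the plasma membrane. SUL2 had 2.09 and 3.53 CPM in IDRm at 30 °C, 9.78 and 7.46 CPM at 40 °C, and 6.12 and 6.97 at 42 °C. In WT it had 14.4 and 11.9, 12.3 and 10.0, and 10.9 and 13.1 CPM at the same temperatures. IDRm at 30 °C was thus the low group, and the 3 WT groups overlapped one another. The IDRm to WT change at 30 °C was −2.23 ± 0.26 on the log2 scale, or 4.7-fold lower (edgeR, adjusted p = 1.48e-07). At 42 °C SUL2 was again lower in IDRm, at −0.85 ± 0.24 (edgeR, adjusted p = 0.0043). Without IDRm 42 °C replicate 1 it did not pass (edgeR, adjusted p = 0.0595).

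SUL1 had 2.09 and 3.36 CPM in IDRm at 30 °C, 8.07 and 6.47 CPM at 40 °C, and 8.52 and 5.53 at 42 °C, and in WT 6.08 and 7.57, 5.57 and 5.86, and 7.10 and 6.76 CPM. IDRm at 30 °C, with 11 and 20 counts, lay below all 5 other groups. Its change against WT at 30 °C was −1.25 ± 0.31 (edgeR, adjusted p = 0.00473). Without IDRm 30 °C replicate 1 it did not pass (edgeR, adjusted p = 0.111). At 40 and 42 °C the strains were at 0.34 ± 0.30 and 0.03 ± 0.27, with adjusted p of 0.443 and 0.955 in edgeR. SUL1 and SUL2 had 11 to 118 counts per library, and the widest standard errors of the set between the strains at 30 °C.

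MET3 (YJR010W, chromosome X, 456239 to 457774) encodes ATP sulfurylase, which attaches sulfate to ATP. It had 27.3 and 32.2 CPM in IDRm at 30 °C, 21.0 and 25.9 CPM at 40 °C, and 29.9 and 31.2 at 42 °C. In WT the levels were 104 and 100.1 CPM, 37.0 and 33.7 CPM, and 43.9 and 52.5 CPM at the same temperatures. WT at 30 °C was far above every other group, and the IDRm libraries lay between 21.0 and 32.2 CPM at all 3 temperatures. MET3 was 3.43-fold lower in IDRm than in WT at 30 °C (−1.78 ± 0.12; edgeR, adjusted p = 2.94e-13), and its changes at 40 and 42 °C were −0.59 ± 0.15 and −0.64 ± 0.13 (edgeR, adjusted p = 0.00378 and 0.000169). The call at 40 °C ended without IDRm 40 °C replicate 1 (adjusted p = 0.0968).

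MET14 (YKL001C, chromosome XI, 438777 to 439385) encodes the kinase that phosphorylates the activated sulfate. Its levels were 78.1 and 76.0 CPM in IDRm at 30 °C, 91.7 and 86.6 CPM at 40 °C, and 138 and 132 at 42 °C, against 111 and 117, 68.8 and 73.6, and 94.0 and 106 CPM in WT. The order of the strains turned with temperature: IDRm was below WT at 30 °C and above it at 40 and 42 °C, with no overlap at any of them. The changes were −0.56 ± 0.09 at 30 °C, 0.32 ± 0.10 at 40 °C and 0.44 ± 0.09 at 42 °C (edgeR, adjusted p = 4.52e-05, 0.0176 and 0.00016). The call at 40 °C ended when any of the 4 libraries was left out (adjusted p of 0.0518 to 0.14).

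MET16 (YPR167C, chromosome XVI, 876847 to 877632) encodes the reductase that turns the activated sulfate into sulfite. It had 34.3 and 32.2 CPM in IDRm at 30 °C, 32.0 and 26.6 CPM at 40 °C, and 40.6 and 34.8 at 42 °C. In WT it had 40.3 and 38.4, 23.4 and 26.2, and 29.1 and 31.5 CPM. It moved least of the 10 genes between the strains at 30 °C, where the change of −0.25 ± 0.12 did not pass (edgeR, adjusted p = 0.167). At 42 °C it was higher in IDRm by 0.33 ± 0.13 (edgeR, adjusted p = 0.0411). That call ended under either other scaling, without a filter, with the 4 libraries alone, in DESeq2, and without WT 42 °C replicate 1 or IDRm 42 °C replicate 1 (adjusted p of 0.0503 to 0.372).

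MET5 and MET10 (YJR137C, chromosome X, 678957 to 683285, and YFR030W, chromosome VI, 213312 to 216419) encode the subunits of sulfite reductase, which makes sulfide. MET5 had 118 and 130.1 CPM in IDRm at 30 °C, 41.6 and 38.6 CPM at 40 °C, and 57.9 and 58.4 at 42 °C. In WT its levels were 323 and 280, 51.8 and 60.3, and 99.3 and 97.0 CPM. IDRm was below WT at every temperature with no overlap, with changes of −1.29 ± 0.09 at 30 °C, −0.49 ± 0.12 at 40 °C and −0.76 ± 0.11 at 42 °C (edgeR, adjusted p = 8.43e-13, 0.0032 and 5e-07). At 40 °C the call ended without WT 40 °C replicate 2 or IDRm 40 °C replicate 2 (adjusted p = 0.109 and 0.0575).

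MET10 had 96.3 and 105 CPM in IDRm at 30 °C, 26.4 CPM in each library at 40 °C, and 26.7 and 25.2 at 42 °C, against 203 and 173, 52.1 and 50.8, and 56.3 and 55.7 CPM in WT. IDRm was below WT at every temperature with no overlap, with changes of −0.91 ± 0.09 at 30 °C, −0.96 ± 0.13 at 40 °C and −1.11 ± 0.13 at 42 °C (edgeR, adjusted p = 4.94e-09, 9.59e-07 and 9.68e-09). Per kilobase the ratio of MET10 to MET5 was 1.14 and 1.13 in IDRm at 30 °C and 0.875 and 0.861 in WT at 30 °C. At 40 °C it was 0.885 and 0.953 in IDRm and 1.4 and 1.18 in WT, and at 42 °C 0.641 and 0.602 in IDRm and 0.79 and 0.8 in WT. The subunit with more footprints per kb was thus not the same in all groups.

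MET17 (YLR303W, chromosome XII, 732542 to 733876), also known as MET15 and MET25, encodes the enzyme that joins sulfide to O-acetylhomoserine, and MET2 (YNL277W, chromosome XIV, 117349 to 118809) the enzyme that makes O-acetylhomoserine. MET17 had 679 and 749 CPM in IDRm at 30 °C, 459 and 501 CPM at 40 °C, and 434 and 448 at 42 °C. In WT it had 1201 and 1067, 588 and 657, and 449.9 and 512 CPM. The strains did not overlap at any temperature, and stood closest at 42 °C, with changes of −0.67 ± 0.08 at 30 °C, −0.38 ± 0.08 at 40 °C and −0.12 ± 0.08 at 42 °C (edgeR, adjusted p = 1.62e-07, 0.000483 and 0.22). The first 12 bases of MET17 overlap YLR302C on the other strand, which had 1 to 8 counts per library.

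MET2 was read at 15.2 and 22.3 CPM in IDRm at 30 °C, 7.34 and 12.4 CPM at 40 °C, and 16.0 and 16.8 at 42 °C, and in WT at 37.7 and 36.0, 10.0 and 12.6, and 16.4 and 22.4 CPM. WT at 30 °C was the high group, and the strains overlapped at 40 and 42 °C. The change at 30 °C was −0.97 ± 0.17 (edgeR, adjusted p = 0.000165). At 40 and 42 °C it was −0.21 ± 0.27 and −0.21 ± 0.20 with adjusted p of 0.618 and 0.448 in edgeR.

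MET6 (YER091C, chromosome V, 339864 to 342167) encodes methionine synthase, which methylates homocysteine. It had 2988 and 3251 CPM in IDRm at 30 °C, 248 and 256 CPM at 40 °C, and 579 and 604 at 42 °C. In WT the levels were 4467 and 4277, 405 and 480, and 692 and 811 CPM. IDRm was below WT with no overlap at all 3 temperatures, with changes of −0.49 ± 0.08 at 30 °C, −0.82 ± 0.08 at 40 °C and −0.34 ± 0.08 at 42 °C (edgeR, adjusted p = 3.72e-05, 6.57e-09 and 0.000799).

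Counted over the set, 5 of the 10 genes were lower and 1, MET14, was higher in IDRm than in WT at 40 °C, beside 14.5% lower and 11.4% higher among all genes. The 5 were MET3, MET5, MET10, MET17 and MET6, and the median over the set was −0.36. At 42 °C, 5 were lower and 2 higher, beside 20.7% lower and 20.4% higher among all genes, with a median of −0.28. On library size alone the split at 42 °C was 6 lower and 1 higher, and with the DESeq2 size factors 5 lower and 1 higher.

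**Figure D3:**
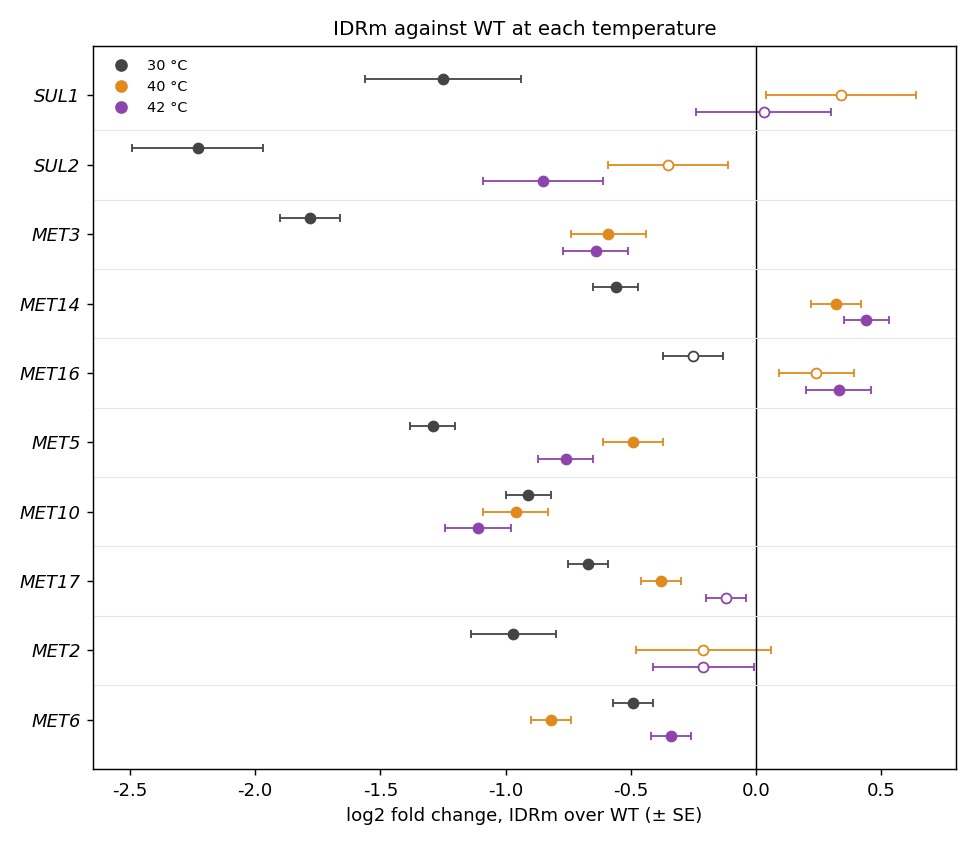
Log2 fold change of IDRm over WT for each gene at 30, 40 and 42 °C, with approximate standard errors as bars and filled points where the adjusted p was 0.05 or less. All 10 black points for 30 °C lie left of 0, and the points for MET14 at 40 and 42 °C lie right of it.

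The second question was how heat moved the genes within each strain. The comparisons of 40 and 42 °C share the libraries at 30 °C. In IDRm at 40 °C, 6 of the 10 genes fell and 3, SUL1, SUL2 and MET14, rose against 30 °C, beside 39.9% lower and 37.4% higher among all genes. On library size alone the split was 7 lower and 2 higher, with MET14 at −0.02, not called, and MET16 called at −0.41 (edgeR, adjusted p = 0.00948). In WT at 40 °C, 8 of the 10 fell and none rose, beside 39.5% lower and 36.1% higher among all genes. The median of the set was −0.46 in IDRm and −1.20 in WT.

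The largest decrease at 40 °C was that of MET6 in both strains, −3.63 ± 0.09 in IDRm (edgeR, adjusted p = 1.15e-25) and 9.87-fold in WT. MET10 fell in both strains, with changes of −1.93 ± 0.12 in IDRm and −1.88 ± 0.10 in WT (edgeR, adjusted p = 4.57e-16 and 1.83e-17). MET5 also fell, with changes of −1.63 ± 0.11 in IDRm and −2.42 ± 0.10 in WT (edgeR, adjusted p = 6.26e-15 and 1.32e-20). MET17 was at −0.57 ± 0.08 in IDRm and −0.87 ± 0.08 in WT, and MET2 at −0.94 ± 0.23 in IDRm and −1.69 ± 0.20 in WT (edgeR, each called).

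MET3 fell in both strains, with −0.35 ± 0.15 in IDRm and −1.54 ± 0.12 in WT (edgeR, adjusted p = 0.0329 and 2e-13). The IDRm call ended in 5 of the alternatives: with the DESeq2 size factors, with the 4 libraries alone, in DESeq2, and without IDRm 30 °C replicate 2 or IDRm 40 °C replicate 1 (adjusted p of 0.0519 to 0.301). MET14 was at 0.21 ± 0.10 in IDRm (edgeR, adjusted p = 0.0479), a call that ended in DESeq2, without a filter and without any 1 of the 4 libraries, and at −0.67 ± 0.10 in WT (edgeR, adjusted p = 1.84e-07). MET16 was at −0.18 ± 0.13 in IDRm (edgeR, adjusted p = 0.223) and fell in WT, at −0.67 ± 0.13 (edgeR, adjusted p = 4.62e-05).

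The permeases had called changes in IDRm and not in WT. SUL1 and SUL2 rose in IDRm at 40 °C by 1.39 ± 0.32 and 1.59 ± 0.30 (edgeR, adjusted p = 0.000275 and 2.06e-05), against −0.20 ± 0.28 and −0.29 ± 0.21 in WT (edgeR, adjusted p = 0.528 and 0.204). On library size alone the WT value of SUL2 was −0.53 with adjusted p = 0.0255.

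At 42 °C in IDRm, 4 of the 10 genes were lower and 3 higher than at 30 °C, beside 36.7% lower and 36.8% higher among all genes. In WT 7 were lower and none was higher, beside 33.6% lower and 30.0% higher among all genes. SUL1, SUL2 and MET14 rose in IDRm by 1.35 ± 0.32, 1.19 ± 0.32 and 0.81 ± 0.09 (edgeR, adjusted p = 0.000383, 0.00136 and 2.11e-09). In WT the 3 genes were at 0.08 ± 0.25, −0.19 ± 0.19 and −0.19 ± 0.09 (edgeR, adjusted p = 0.795, 0.398 and 0.0615). MET14 in WT was called without a filter, with replicate blocks and without WT 42 °C replicate 2.

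MET6, MET10, MET5 and MET17 fell in both strains at 42 °C. The changes of MET6 were −2.40 ± 0.08 in IDRm and −2.54 ± 0.08 in WT, and those of MET10 were −1.96 ± 0.12 in IDRm and −1.75 ± 0.10 in WT (edgeR, all called). MET5 was at −1.09 ± 0.10 in IDRm and −1.62 ± 0.09 in WT, and MET17 at −0.70 ± 0.08 in IDRm and −1.24 ± 0.08 in WT (edgeR, all called). MET3, MET2 and MET16 were at 0.03 ± 0.14, −0.21 ± 0.20 and 0.19 ± 0.13 in IDRm, none called. In WT they fell, at −1.10 ± 0.11, −0.97 ± 0.17 and −0.39 ± 0.12. The call of MET16 in WT ended in DESeq2 and without WT 30 °C replicate 1 or WT 42 °C replicate 1 (adjusted p = 0.0726, 0.0669 and 0.0784).

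**Figure D4:**
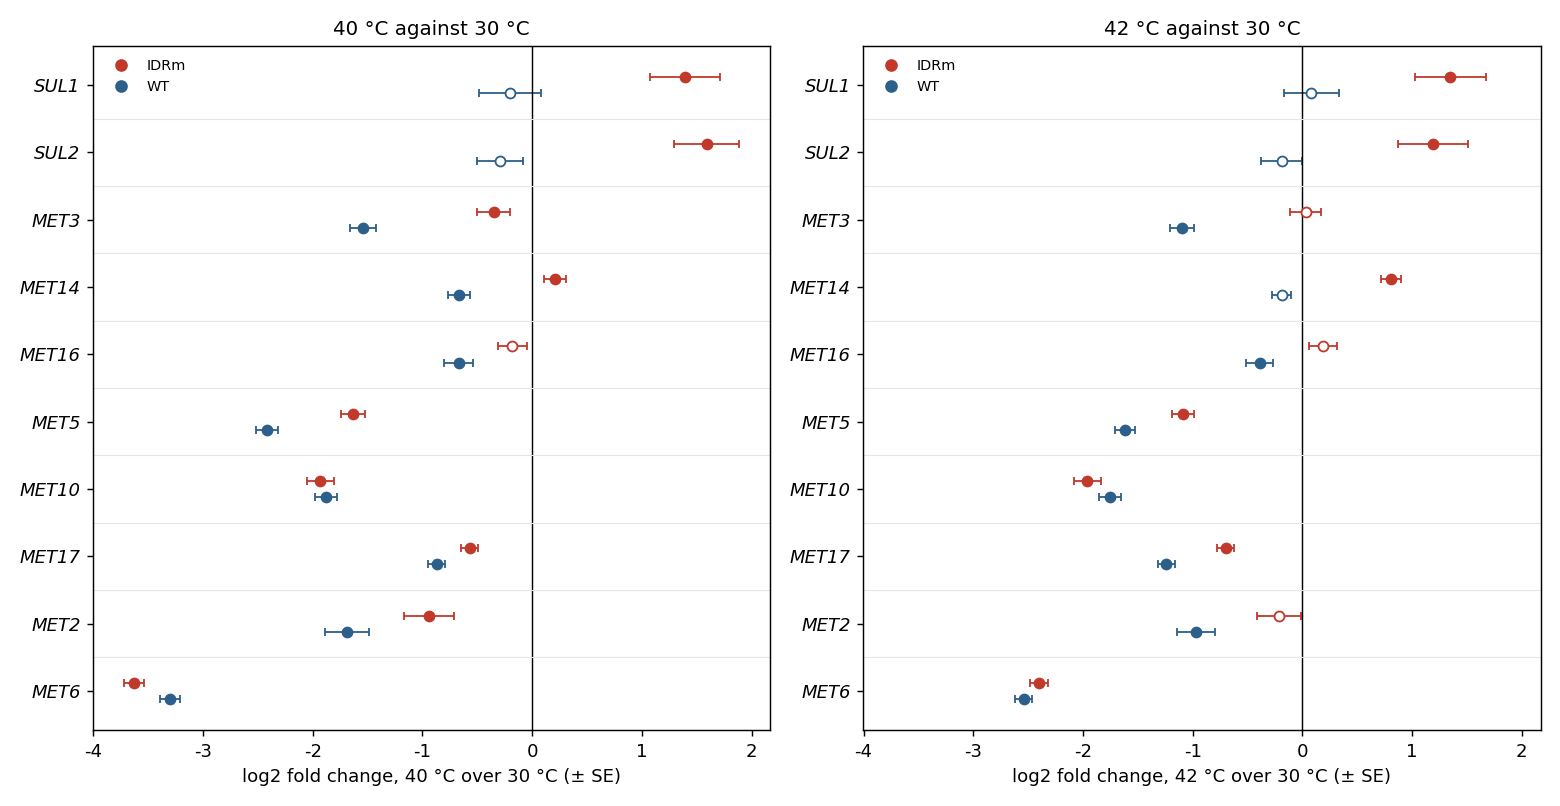
Log2 fold change of 40 °C (left panel) and 42 °C (right panel) over 30 °C, with IDRm above WT in each row, approximate standard errors as bars and filled points for called genes. SUL1 and SUL2 lie right of 0 in IDRm and near 0 in WT, while MET6 lies between −2.40 and −3.63 in both strains and panels.

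The hotter temperature was also set against 40 °C. In IDRm 6 of the 10 genes, MET3, MET14, MET16, MET5, MET2 and MET6, were higher at 42 °C and none was lower, beside 27.3% higher and 27.0% lower among all genes. This count was 3 in DESeq2 and without IDRm 42 °C replicate 1, and the split was 4 higher and 1 lower with the DESeq2 size factors. The calls of MET3, MET16 and MET2 each ended in DESeq2 and in 2 or 3 of the fits without 1 library. In WT 5 were higher, MET3, MET14, MET5, MET2 and MET6, and 1, MET17, was lower, beside 29.8% higher and 29.4% lower among all genes. On library size alone 7 were higher in WT and none was lower. In WT the call of MET3 ended without WT 40 °C replicate 2 or WT 42 °C replicate 2 (edgeR, adjusted p = 0.0734 and 0.0639), and that of MET2 without WT 40 °C replicate 1 or WT 42 °C replicate 2 (edgeR, adjusted p = 0.0733 and 0.0729). MET6 had the largest rise in IDRm, 1.23 ± 0.08, and was at 0.76 ± 0.08 in WT (edgeR, adjusted p = 9.39e-14 and 1.55e-09).

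The difference between the strains in their response to heat was tested directly as IDRm minus WT. It uses the libraries at 30 °C of both strains, the same ones in which the genes were lower in IDRm, so it is no separate evidence of that. From 30 to 40 °C, 5 of the 10 genes, SUL1, SUL2, MET3, MET14 and MET5, had a more positive change in IDRm and none a more negative one, beside 3.81% and 8.52% of all genes. From 30 to 42 °C, 8 of 10 had a more positive change and none a more negative one, beside 11.4% and 16.1% of all genes. DESeq2 gave no adjusted p to SUL1 and SUL2 in either comparison, nor to MET2 at 40 °C. Among the 7 members with one at 40 °C it called 3, MET3, MET14 and MET5, as edgeR did. Among the 8 with one at 42 °C it called 4, where edgeR called 6, and MET16 and MET2 were no longer called (DESeq2, adjusted p = 0.151 and 0.185). With replicate blocks the count at 40 °C was 8, 7 positive and 1, MET6, negative. The count at 42 °C was 5 without IDRm 30 °C replicate 1 or without IDRm 42 °C replicate 1.

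MET10 and MET6 were the members outside both counts. For MET10 the differences in response were −0.05 ± 0.16 at 40 °C and −0.20 ± 0.16 at 42 °C (edgeR, adjusted p = 0.887 and 0.364), with intervals of 2 SE on each side from −0.37 to 0.27 and from −0.51 to 0.11. For MET6 they were −0.33 ± 0.11 and 0.14 ± 0.11 (edgeR, adjusted p = 0.0558 and 0.366). The value of MET6 at 40 °C was called as more negative in IDRm on library size alone, with the libraries of the comparison alone, with replicate blocks and without WT 40 °C replicate 1 (edgeR, adjusted p of 0.0128 to 0.0386). From 40 to 42 °C 1 gene, MET6, had a more positive change in IDRm, by 0.47 ± 0.12 (edgeR, adjusted p = 0.00757), beside 6.24% higher and 3.85% lower among all genes. This call ended in DESeq2 (adjusted p = 0.0758; SUL1 and SUL2 again had none) and without WT 40 °C replicate 2 (adjusted p = 0.1) or IDRm 40 °C replicate 1 (adjusted p = 0.0598). Without WT 42 °C replicate 2 a second gene, MET17, joined it.

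A list of 31 other genes of sulfur metabolism, its transporters and its regulators was read the same way. Of these 30 were tested, and MET28, a cofactor of Met4, had a total of 1 count over the 12 libraries. At 30 °C 7 were lower and 3 higher in IDRm than in WT, with a median of −0.11, beside 6.75% lower and 9.58% higher among all genes. DESeq2 gave 4 lower and 2 higher, without IDRm 30 °C replicate 1 there were 4 lower and 1 higher, and without IDRm 30 °C replicate 2 there were 4 lower and 2 higher. Among the lower ones MHT1, MET1, STR3 and MMP1, singled out after their values were seen, had log2 changes of −0.95 to −1.56. MHT1, which makes methionine from S-methylmethionine, had 12.9 and 13.6 CPM in IDRm, against 42.4 and 34.1 CPM in WT (−1.56 ± 0.15; edgeR, adjusted p = 3e-09).

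MET1, an enzyme of siroheme, the cofactor of sulfite reductase, had 9.67 and 12.6 CPM in IDRm at 30 °C, against 30.2 and 32.5 CPM in WT (−1.47 ± 0.17; edgeR, adjusted p = 8.47e-08). STR3, cystathionine beta-lyase, and MMP1, the S-methylmethionine permease, had log2 changes of −1.45 ± 0.15 and −0.95 ± 0.11 (edgeR, adjusted p = 9.95e-09 and 2.53e-07). No library of IDRm overlapped WT for these 4 genes. Having been picked for their values, they could hardly show otherwise, so this adds nothing to the calls. The regulators were not called at 30 °C. MET4 was at −0.00 ± 0.11, CBF1 at 0.10 ± 0.09, MET31 at −0.08 ± 0.19, MET30 at −0.13 ± 0.12 and MET32, with the lowest level, at −0.81 ± 0.45 (edgeR, adjusted p from 0.241 to 0.991).

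**Figure D5:**
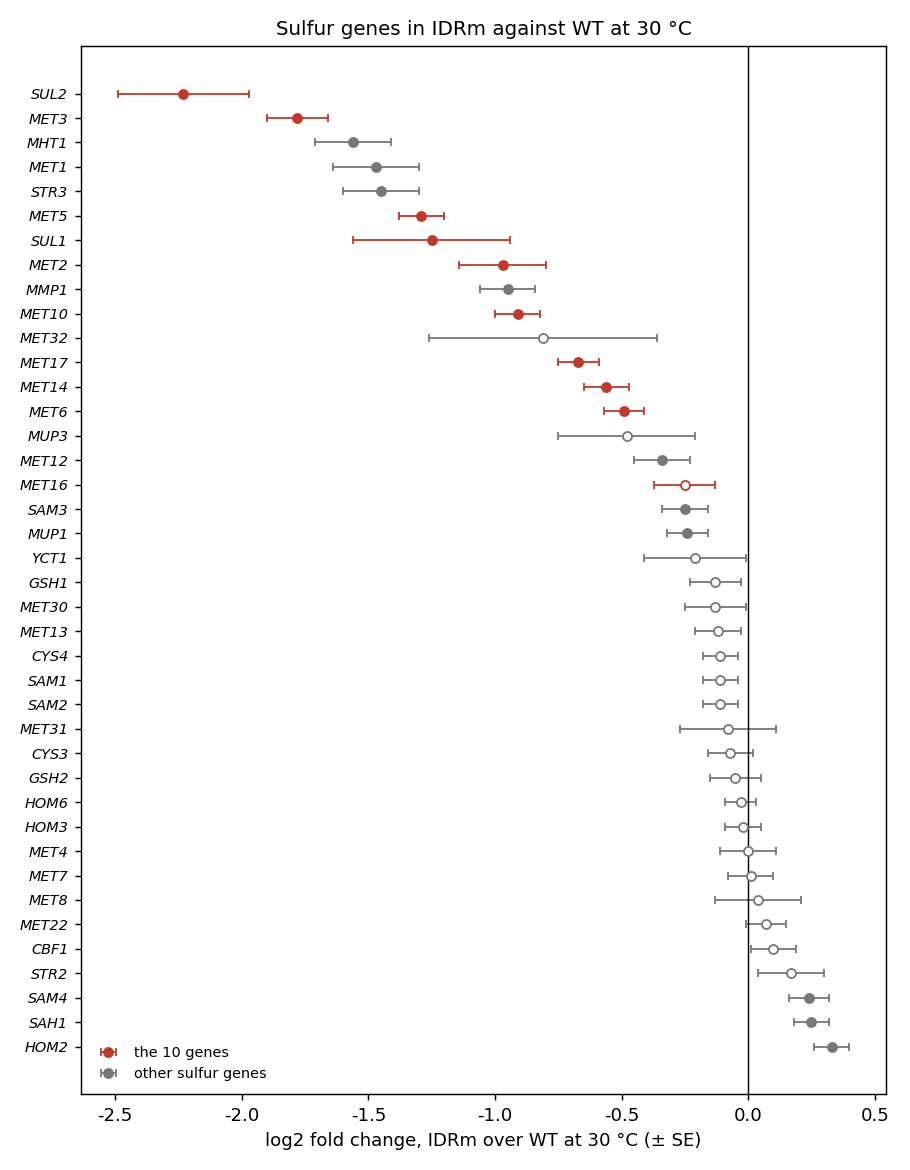
Log2 fold change of IDRm over WT at 30 °C for the 10 genes (red) and the 30 other sulfur genes tested (grey), with approximate standard errors as bars and filled points for called genes. There are 9 red points and 7 grey points filled left of 0, and 3 grey points are filled right of it.

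In heat the other genes were called in both directions. Among all genes 14.5% were lower and 11.4% higher in IDRm than in WT at 40 °C, and 20.7% and 20.4% at 42 °C. In IDRm at 40 °C 9 of the 30 were lower and 5 higher than in WT, with a median of −0.16. DESeq2 gave 5 lower and 4 higher, and without WT 40 °C replicate 1 or IDRm 40 °C replicate 2 there were 6 and 5 lower and 3 higher each time. At 42 °C 11 were lower and 10 higher, with a median of −0.10, or 7 lower and 6 higher without IDRm 42 °C replicate 1. YCT1, a cysteine transporter, was higher in IDRm at both, by 1.21 ± 0.11 and 1.17 ± 0.15 (edgeR, adjusted p = 2.38e-10 and 7.77e-08). HOM3, aspartate kinase, which starts the homoserine branch, was higher by 0.73 ± 0.07 and 0.76 ± 0.07 (edgeR, adjusted p = 1.67e-09 and 2.67e-10).

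SAM1, an S-adenosylmethionine synthetase that shares 5.7% of its 28-mers with another coding sequence, was lower in IDRm at 40 °C, with a change of −1.20 ± 0.09 (edgeR, adjusted p = 2.04e-12). At 42 °C MET12, a methylenetetrahydrofolate reductase, GSH1, the first enzyme of glutathione synthesis, and MMP1 were lower, at −1.14 ± 0.14, −0.98 ± 0.18 and −0.92 ± 0.14 (edgeR, adjusted p = 6.06e-08, 4.69e-05 and 2.91e-06). HOM2, the next enzyme of the homoserine branch, was higher by 0.77 ± 0.07. At 40 °C MUP1, the high-affinity methionine permease, and MMP1 were lower, at −0.56 ± 0.10 and −0.75 ± 0.21, and STR2, cystathionine gamma-synthase, was higher by 0.46 ± 0.16 (edgeR, adjusted p = 6.66e-05, 0.00664 and 0.0355). The calls of MMP1 and STR2 each ended without 1 of several libraries, WT 40 °C replicate 1 among them. Among the regulators MET4 was at −0.34 ± 0.13 at 40 °C and −0.36 ± 0.13 at 42 °C, and CBF1 was at 0.26 ± 0.10 at 42 °C (edgeR, adjusted p = 0.0501, 0.0333 and 0.0409). Both calls at 42 °C ended in DESeq2 and in several of the fits without 1 library.

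Against 30 °C, 20 of the 30 genes fell and 4 rose in IDRm at 40 °C, and 15 fell and 6 rose at 42 °C, with medians of −0.58 and −0.38. Among all genes in IDRm 39.9% fell and 37.4% rose at 40 °C, and 36.7% fell and 36.8% rose at 42 °C. In WT 19 of the 30 fell and 3 rose at 40 °C, and 22 fell and 4 rose at 42 °C, with medians of −0.61 and −0.65. Among all genes in WT the shares were 39.5% and 36.1% at 40 °C and 33.6% and 30.0% at 42 °C. Most negative in WT at 40 °C were MHT1, MET1 and MMP1, at −2.71 ± 0.19, −2.23 ± 0.20 and −2.17 ± 0.14. At 42 °C they were GSH1, GSH2, which completes glutathione, and SAM1, at −2.30 ± 0.12, −2.05 ± 0.12 and −1.83 ± 0.08 (edgeR, all called). The 3 that rose at 40 °C were YCT1 by 2.46 ± 0.15, MUP3, a low-affinity methionine permease, by 2.15 ± 0.20, and CYS3, cystathionine gamma-lyase, by 0.35 ± 0.09. On library size alone CYS3 was at 0.10, not called. At 42 °C the highest were MUP3 by 1.87 ± 0.20, YCT1 by 0.74 ± 0.18 and SAM4, with 24.2% of its 28-mers found in another coding sequence, by 0.58 ± 0.08. CBF1 and MET30 fell in WT at both temperatures, CBF1 at −0.29 ± 0.09 and −0.75 ± 0.09 and MET30 at −0.56 ± 0.13 and −0.45 ± 0.13. The call of CBF1 at 40 °C ended in 3 alternatives, among them DESeq2. MET4 fell at 42 °C, with a change of −0.50 ± 0.12, and MET31 rose, by 0.55 ± 0.18 (edgeR, adjusted p = 0.000464 and 0.00913). At 40 °C in WT MET4 and MET31 were not called, and MET32 was not called at 40 or 42 °C. The same regulators moved in IDRm. At 40 and 42 °C CBF1 was at −0.37 ± 0.09 and −0.59 ± 0.09, and MET30 at −0.59 ± 0.14 and −0.48 ± 0.14. MET4 was at −0.39 ± 0.12 and −0.86 ± 0.13, and MET31 rose at 42 °C by 0.77 ± 0.19 (edgeR, all called). MET31 at 40 °C and MET32 at both were not called. These IDRm values were not rerun in the alternatives.

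Across the 12 libraries the members were not equally alike. Pearson correlations of log2 CPM were highest for MET5 with MET10 and with MET6, 0.94 each, and were 0.79 for SUL1 with SUL2 and 0.77 for MET14 with MET16. The lowest was −0.46, for SUL1 with MET6. Outside the sulfur genes the most similar tested gene, of 5679, was ADE3, a folate enzyme, for MET6 (r = 0.995). It was ECM29 for MET10 (0.989), MCK1 for MET5 (0.985), OPT2 for SUL2 (0.963), MSB2 for MET17 (0.962) and PIF1 for MET2 (0.951). Lower values were those of AGA1 for MET3 (0.942), ASH1 for MET16 (0.927), YGL088W for SUL1 (0.889) and ERT1 for MET14 (0.863). The 12 points share the 6 groups and the same scaling, so these values describe profiles over temperature and strain and carry no test.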

How the data were processed

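Ribosome footprints of 12 libraries were taken as raw counts per gene, as the authors deposited them. Per the submitters' processing notes, bcl2fastq 2.17.1.14, cutadapt 1.17, Bowtie2 2.2.6, STAR 2.5.2b and genome build R64 were used; the sources used here give neither their roles nor the strand setting and counting rule. Of 6697 rows, 6014 matched the R64 annotation, and the 683 others held 0.04% to 0.112% of a library.

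The test across all genes was that of edgeR 4.0.16 under R 4.3.3, with filterByExpr (count minimum 10, total minimum 15), TMM scaling, a separate mean for each group in a fit of all 12 libraries, robust quasi-likelihood F tests with 6 residual degrees of freedom, and Benjamini-Hochberg adjustment over 5719 genes in each of 12 comparisons. Standard errors were derived from F (size of the log2 change over the root of F) and are approximate. CPM are on the scaled library sizes, with a prior count of 2 for log2 levels. Duplicate pre-cultures are the only recorded replication. The p-values measure a spread between libraries that is in large part pooled over genes. The median of the prior degrees of freedom was 25.5, beside the 6 residual ones. None of the 10 genes shares a 28-mer with another coding sequence. The members, the list of 31 other sulfur genes and the tests were chosen with earlier results of these data known. All 10 members are named. Of the list, the 3 highest and 3 lowest called genes of 4 comparisons and the regulators are named, and 1 most similar gene per member was sought. For some of the comparisons the fit was tried on simulated counts with known changes, drawn as independent libraries from the genes' means and spreads. Such counts cannot show the effect of shared cultures. Alternatives were other scalings, no filter, fewer libraries, DESeq2 1.42.0, replicate blocks and leaving out each library.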

Additional observations from a re-analysis of the deposited data

Results flagged for a closer look

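The response to heat differed between the strains (change in IDRm minus change in WT) for 8 of the 10 genes from 30 to 42 °C and for 5 from 30 to 40 °C (edgeR quasi-likelihood test, Benjamini-Hochberg adjusted over all genes), each more positive in IDRm. Among all genes 11.4% were more positive and 16.1% more negative from 30 to 42 °C, and 3.81% and 8.52% from 30 to 40 °C. From 30 to 40 °C the differences were 1.59 ± 0.43 for SUL1, 1.88 ± 0.37 for SUL2, 1.19 ± 0.19 for MET3, 0.88 ± 0.14 for MET14 and 0.79 ± 0.15 for MET5 on the log2 scale, with adjusted p from 1.78e-05 to 0.0109. From 30 to 42 °C they were 1.27 ± 0.41 for SUL1, 1.38 ± 0.37 for SUL2, 1.14 ± 0.18 for MET3, 1.00 ± 0.13 for MET14, 0.58 ± 0.18 for MET16, 0.53 ± 0.14 for MET5, 0.55 ± 0.11 for MET17 and 0.76 ± 0.26 for MET2, with adjusted p from 2.96e-07 to 0.033. From 40 to 42 °C the difference was 0.47 ± 0.12 for MET6.

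The differences from 30 to 40 °C and from 30 to 42 °C share the libraries at 30 °C, in which 9 of the 10 genes were lower in IDRm than in WT. They are thus no separate evidence beside that gap. SUL1, for example, was at −1.25 ± 0.31 between the strains at 30 °C and at 0.03 ± 0.27 at 42 °C. For SUL1 the difference at 40 °C was 1.31 (edgeR, adjusted p = 0.0858) without IDRm 30 °C replicate 1 and 1.42 (adjusted p = 0.0778) without IDRm 40 °C replicate 1. At 42 °C without IDRm 30 °C replicate 1 they were 0.99 for SUL1, 1.07 for SUL2 and 0.52 for MET2 (edgeR, adjusted p = 0.126, 0.0639 and 0.177), and without WT 30 °C replicate 1 they were 0.53 for MET16 and 0.72 for MET2 (edgeR, adjusted p = 0.0615 and 0.0887). SUL1 was also not called without IDRm 42 °C replicate 1, MET16 in 3 other fits without a library and MET2 in 3 others (edgeR, adjusted p of 0.0578 to 0.197). Under the other scalings MET2 was not called at 42 °C either. It was at 0.70 with the DESeq2 size factors and 0.68 on library size alone (edgeR, adjusted p = 0.0548 and 0.056). The differences of MET3, MET14, MET5 and MET17 were called in every alternative run at 42 °C.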

How the results depend on the processing

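Of 1313 values of the 10 genes recomputed under other settings, 1186 kept their direction and their side of the threshold. Of the others, 69 kept their direction but were no longer called, 20 became called, and 37 uncalled values changed sign. One called value reversed, that of MET14 in IDRm at 40 against 30 °C, which was −0.02 on library size alone. Library size alone moved the median gene at 40 against 30 °C to −0.22 in IDRm and −0.26 in WT, and at 42 against 40 °C to 0.22 in IDRm and 0.30 in WT. It changed the split of all calls in WT at 42 against 40 °C to 2620 higher and 921 lower, beside 1703 and 1684, and that in IDRm to 2228 and 974, beside 1564 and 1546. In WT at 40 against 30 °C it gave 1620 and 2739, beside 2062 and 2257. For IDRm over WT at 42 °C it gave 813 and 1587, beside 1165 and 1183. For the difference in response it gave 455 and 1098 from 30 to 42 °C, beside 650 and 919, and 211 and 296 from 40 to 42 °C, beside 357 and 220. The DESeq2 size factors gave 207 and 282 for the difference in response from 40 to 42 °C and 1299 and 1832 for IDRm at 42 against 40 °C.

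In DESeq2 3 of the 10 genes were called for IDRm at 42 against 40 °C, and 3 of 7, 4 of 8 and 0 of 8 genes with an adjusted p for the differences in response from 30 to 40, 30 to 42 and 40 to 42 °C. Over the same genes edgeR called 3, 6 and 1. SUL1 and SUL2, which DESeq2 left without an adjusted p, were at 1.65 and 1.88 there from 30 to 40 °C (unadjusted p = 0.00647 and 0.000274), and the 0 calls from 40 to 42 °C stand beside 1 of the 10 genes at an unadjusted p under 0.05 in DESeq2. Leaving out each library gave 3 to 5 for IDRm at 42 against 40 °C, 4 to 6, 5 to 8 and 0 to 2 for those differences in response, and 8 or 9 for IDRm over WT at 30 °C. A lone library left in a group is assumed to vary like the others. Over all genes DESeq2 called 331 higher and 156 lower for IDRm over WT at 30 °C, beside 548 and 386. The cause of these shifts was not tested.

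Per the labels, the temperatures of a strain share split main cultures, but no label ties a replicate number to a culture. Replicate differences had correlations between −0.09 and 0.15 across pairs of groups, so the numbers were not taken to pair the libraries. With the replicate block the count for the difference in response at 40 °C was 8, and the block moved no other count of the 10 genes by over 1.5 times. Depth limits SUL1 and SUL2 most, with 11 counts in the lowest library.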

Other observations

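MET6 and MET17, which act one after the other at the end of the pathway, did not keep their order over the temperatures. Per kilobase, MET6 had 2.55 and 2.51 times the footprints of MET17 in IDRm at 30 °C, 0.313 and 0.296 times as many at 40 °C, and 0.772 and 0.782 times at 42 °C. In WT the ratio was 2.15 and 2.32 at 30 °C, 0.399 and 0.423 in the 40 °C libraries, and 0.891 and 0.917 at 42 °C. The permeases also differed in their balance: SUL1 had 1.04 and 0.99 times the footprints of SUL2 per kb in IDRm at 30 °C, against 0.44 and 0.662 times in WT. These IDRm values rest on 11 to 21 counts per gene and library, and the ratios were not tested.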
